A study of Mus musculus with 6 samples.

Results

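The genes described here encode subunits of respiratory chain complexes I, III and IV, in the nucleus or on the mitochondrial genome, together with the mitochondrially encoded subunits of complex V, the ATP synthase. They were chosen by name alone: every row of the deposited gene table whose symbol begins with Nduf (families a, b, c, s and v), Cox4 to Cox8, Uqcr, mt-Nd, mt-Co, mt-Cyt or mt-Atp and that held at least 30 counts over the 6 libraries. Of 56691 rows, 88 matched by name and 77 of these reached the count minimum, among 15841 rows of any name that did so. Of the 77 members, 11 are mitochondrially encoded (6 of complex I, 1 of complex III, 3 of complex IV and 1 of complex V) and 66 are nuclear (42 of complex I, 8 of complex III and 16 of complex IV). The 11 matching rows under the minimum include mt-Nd4l with 18 counts, mt-Atp8 with 11, Cox4i2 with 10 and Cox8b with 2, and 5 of the 11 had no count at all. Annotation as a pseudogene applied to 5 of the nuclear members (Ndufa12-ps, Ndufb4c, Ndufs5-ps, Ndufs6b and Cox6c2), and Cox5b-ps carries a pseudogene name. The row Ndufb1 is named Ndufb1-ps in GENCODE M21 and annotated there as a bidirectional promoter lncRNA. It was counted here with the ordinary subunit rows.

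The respiratory chain passes electrons from NADH and succinate to oxygen, and complexes I, III and IV use the energy released to pump protons across the inner mitochondrial membrane, a gradient that the ATP synthase spends. Complexes I, III, IV and V are built from proteins of both genomes: mitochondrial DNA encodes a few hydrophobic core subunits, which are transcribed inside the organelle from long polycistronic transcripts, and the nucleus encodes all other subunits, which are imported. Macrophages shift the balance between this pathway and glycolysis with their activation state, and nuclear factors such as NRF1 and GABP are known regulators of the nuclear subunit genes.

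The cells were mouse bone marrow-derived macrophages (BMDMs), grown from bone marrow with M-CSF, co-cultured with the mEC25 cell line and sorted before RNA was taken. In the contact group (3 libraries) the macrophages had touched the mEC25 cells, and in the transwell group (3 libraries) a membrane had kept the cells apart. Macrophages cultured alone are not among the samples analysed here, and the labels give neither the strain and age of the mice nor the sorting gate. Whether replicate libraries came from different mice or cultures is not stated either, so a p-value measures only the spread between these libraries, which may be technical.

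Library totals ran from 20911880 to 22563835 counts in contact and from 18173192 to 18895818 in transwell libraries. Macrophage markers were abundant in both groups: 10 markers summed to 14475 to 16442 FPKM (fragments per kilobase of transcript, scaled to library size) in contact and 16023 to 17088 FPKM in transwell libraries. Singly they were not stable: in the fit described below, 5 were called lower in contact and 3 higher, with log2 changes from -1.91 to 1.49. Of all genes tested, 16.1% were called lower and 21.4% higher. Epithelial markers differed in their sum: 35 of them came to 1166, 1753 and 999 FPKM in contact libraries 1 to 3 and to 5.82 to 6.26 FPKM in transwell libraries, 34 of the 35 had the higher mean in contact, and Dsg3, Cldn4, Ppl and Grhl2 had no transwell count. Neutrophil markers (6) summed to 720 to 1068 FPKM in contact and 480 to 1130 FPKM in transwell, and T and B cell markers (5) to at most 0.74 FPKM in any library. The part of these epithelial transcripts in the differences below was not tested. In bulk RNA, fewer cells of a type and less RNA per cell cannot be told apart.

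Several mitochondrial genes have near-identical copies in the nuclear genome, which bears on every value given for them. On mouse chromosome 1, minus strand (GENCODE M21, GRCm38), annotated pseudogenes run from mt-Nd4 back to mt-Co1, and the first 60 bases of 2 mitochondrial genes and of their nuclear copies show how close they are. Lower case marks identical bases, and capitals mark the only difference, T3C, counted from 1 at the first base of the gene with the mitochondrial base first. The windows lie at chrM:7013-7072 (plus strand) and chr1:24615506-24615565 (minus strand) for mt-Co2 and Gm28661, and at chrM:9459-9518 (plus strand) and chr1:24613060-24613119 (minus strand) for mt-Nd3 and Gm28438.
mt-Co2: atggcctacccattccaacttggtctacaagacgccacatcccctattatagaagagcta
Gm28661: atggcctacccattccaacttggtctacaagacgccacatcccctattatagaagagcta
mt-Nd3: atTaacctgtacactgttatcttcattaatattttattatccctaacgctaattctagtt
Gm28438: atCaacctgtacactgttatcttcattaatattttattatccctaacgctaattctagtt

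Nearly the whole of these genes is copied: mt-Co2 and Gm28661 matched across 681 of 684 bases with 0 mismatches, mt-Co3 and Gm28437 across 783 of 784 with 0, mt-Atp6 and Gm10925 across 678 of 681 with 0, and mt-Nd3 and Gm28438 across 345 of 348 with 1. Of the 50-base words in each gene, 98 to 100% also occurred in another annotated gene for mt-Co2, mt-Atp6, mt-Co3, mt-Nd3 and mt-Nd4l, 62.2% for mt-Nd4, 51.1% for mt-Co1, 8.2% for mt-Nd2 and 7.6% for mt-Nd5, and none for mt-Nd1, mt-Nd6 and mt-Cytb. The genes whose words were almost all shared had low deposited levels per length: averaged over the 6 libraries, mt-Co1 stood 184-fold above mt-Co2, 418-fold above mt-Co3, 807-fold above mt-Atp6 and 5767-fold above mt-Nd3, but 3.06-fold above mt-Nd1 and 3.7-fold above mt-Cytb. mt-Atp8 held 11 counts in all and shared no word with another annotated gene, but a copy that is not annotated would not show in this measure. The gene (chrM:7766-7969) starts between mt-Co2 and mt-Atp6. The copies of these on chromosome 1, Gm28661 (24614885-24615565) and Gm10925 (24613974-24614651), leave a stretch between them that was not compared. The sources used here do not say how the authors' counting treated reads that fit several places, so levels of the genes with shared sequence are uncertain.

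**Figure D1:**
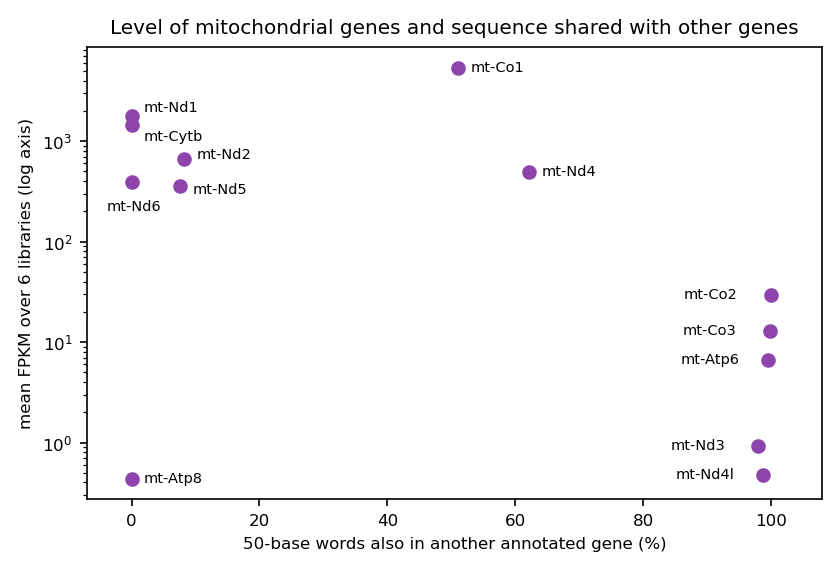
Mean FPKM over 6 libraries (y axis, log scale) against the percent of a gene's 50-base words that also occur in another annotated gene (x axis), 1 point per mitochondrially encoded protein gene, including mt-Nd4l and mt-Atp8, which missed the count minimum. The 5 genes at 98 to 100% shared words lie at 0.475 to 29.3 FPKM, and mt-Atp8 lies at 0.438 FPKM with none shared. Copies that are not annotated were not counted.

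All 10 tested mitochondrially encoded members rose in contact, while nuclear members split into few that rose, more that fell and a majority not called. Of 62 tested nuclear members, 3 rose (4.84%), 12 fell (19.4%) and 47 did not pass the test. Over all 14113 genes tested, 21.4% were called higher, 16.1% lower and 37.5% in either direction (edgeR's quasi-likelihood test, adjusted p under 0.05), so the nuclear share that fell lies near the background, the share that rose below it, and no test of either share against the background was made. The median log2 change (contact minus transwell, scaled by TMM) was 0.57 for the mitochondrial and -0.15 for the nuclear members, against 0.03 over all genes tested. Scaled by library totals without TMM, 73.1% of all calls were higher in place of 57.1%, the median over all genes was 0.14 and that of nuclear members -0.04, and 4 nuclear members rose and 4 fell. At that scaling, 3934 of all 14113 genes rose and 1450 fell. The 8 falls that ended were Ndufb8, Ndufa9, Ndufs3, Ndufv1, Uqcrb, Uqcrc1, Uqcrc2 and Cox5b (adjusted p of 0.0511 to 0.294), and Ndufa4 was gained. The mitochondrial count stayed at 10. Without the pseudogene rows, but with Ndufb1 kept, the nuclear counts stood at 3 and 12 of 59. The filter on low counts left 5 members untested: mt-Nd3, Ndufb4c, Ndufs6b, Cox6a2 and Cox6c2.

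Mitochondrially encoded complex I subunits form the proton-pumping membrane arm of the enzyme. The level of mt-Nd1 (chrM:2751-3707) was 2086, 2287 and 2165 FPKM in the contact and 1228, 1390 and 1412 FPKM in the transwell libraries, replicates 1 to 3 in order here and below. All 3 contact libraries lay above all 3 transwell libraries, and the change on the TMM scale was 0.58 ± 0.07 (log2, SE; edgeR's quasi-likelihood test, adjusted p = 0.000208). mt-Nd2 (chrM:3914-4951), another membrane subunit, measured 795, 869 and 903 FPKM in contact and 388, 497 and 478 FPKM in transwell. Its groups did not overlap, and it rose by 0.80 ± 0.10 (adjusted p = 0.000149). mt-Nd4 (chrM:10167-11544), the subunit in which many mutations of Leber's optic neuropathy lie in humans, measured 634, 654 and 659 FPKM in contact and 299, 363 and 365 FPKM in transwell. That is a rise of 0.81 ± 0.08 (adjusted p = 5.89e-05), the smallest adjusted p of the mitochondrial members.

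The last gene pair of complex I overlaps at its ends on opposite strands, and whether the counting used strand is not stated in the labels or file headers. mt-Nd5 (chrM:11742-13565, plus strand) measured 422, 422 and 494 FPKM in contact and 208, 318 and 280 FPKM in transwell. It rose by 0.62 ± 0.14 (edgeR's quasi-likelihood test, adjusted p = 0.00611), with transwell 1 lowest. mt-Nd6 (chrM:13552-14070), the only protein gene of the minus strand, measured 491, 467 and 500 FPKM in contact and 280, 316 and 314 FPKM in transwell, a rise of 0.57 ± 0.07 (adjusted p = 0.00026). mt-Nd3 (chrM:9459-9806) held 40 counts in all and was not tested: its level was 0.76, 1.51 and 1.16 FPKM in contact and 0.76, 0.79 and 0.62 FPKM in transwell, and the groups overlapped.

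Cytochrome b, the mitochondrially encoded subunit of complex III that holds the enzyme's b hemes, had the largest change among the mitochondrial members. mt-Cytb (chrM:14145-15288) measured 1861, 1995 and 2018 FPKM in contact and 758, 1044 and 1057 FPKM in transwell. The groups did not overlap, and the change was 0.92 ± 0.12 (edgeR's quasi-likelihood test, adjusted p = 0.000202), a fold of 1.9. Its sequence shares no 50-base word with another annotated gene.

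Complex IV carries 3 mitochondrial subunits, which form its catalytic core. mt-Co1 (chrM:5328-6872), the subunit that binds the heme-copper centre where oxygen is reduced, was the most abundant member, at 6291, 6318 and 6544 FPKM in contact and 3434, 4843 and 4867 FPKM in transwell. It had the smallest change of the mitochondrial members, 0.43 ± 0.12 (edgeR's quasi-likelihood test, adjusted p = 0.0189), and its call ended without contact 1 (0.44, adjusted p = 0.0542) or contact 2 (0.44, adjusted p = 0.0539). It made up 57.1 to 58.5% of mitochondrial member counts in contact and 60.9 to 63.8% in transwell libraries. mt-Co2 (chrM:7013-7696), which accepts electrons from cytochrome c, measured 33.17, 37.40 and 36.02 FPKM in contact and 19.96, 23.49 and 25.82 FPKM in transwell, and rose by 0.51 ± 0.11 (adjusted p = 0.0056). mt-Co3 (chrM:8607-9390), the third core subunit, measured 14.4, 17.2 and 15.9 FPKM in contact and 10.5, 9.12 and 10.2 FPKM in transwell, and rose by 0.55 ± 0.13 (adjusted p = 0.00662). Neither gene's groups overlapped.

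The complex V member mt-Atp6 (chrM:7927-8607), part of the ATP synthase proton channel, measured 8.13, 8.01 and 8.40 FPKM in contact and 4.12, 5.33 and 6.01 FPKM in transwell. The groups did not overlap, and the change was 0.55 ± 0.19 (edgeR's quasi-likelihood test, adjusted p = 0.047). With 561 counts in all, its call ended when any 1 library was left out, at changes of 0.42 without transwell 1 to 0.67 without transwell 3 and adjusted p of 0.115 and 0.0506. DESeq2 gave it an adjusted p of 0.0608.

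**Figure D2:**
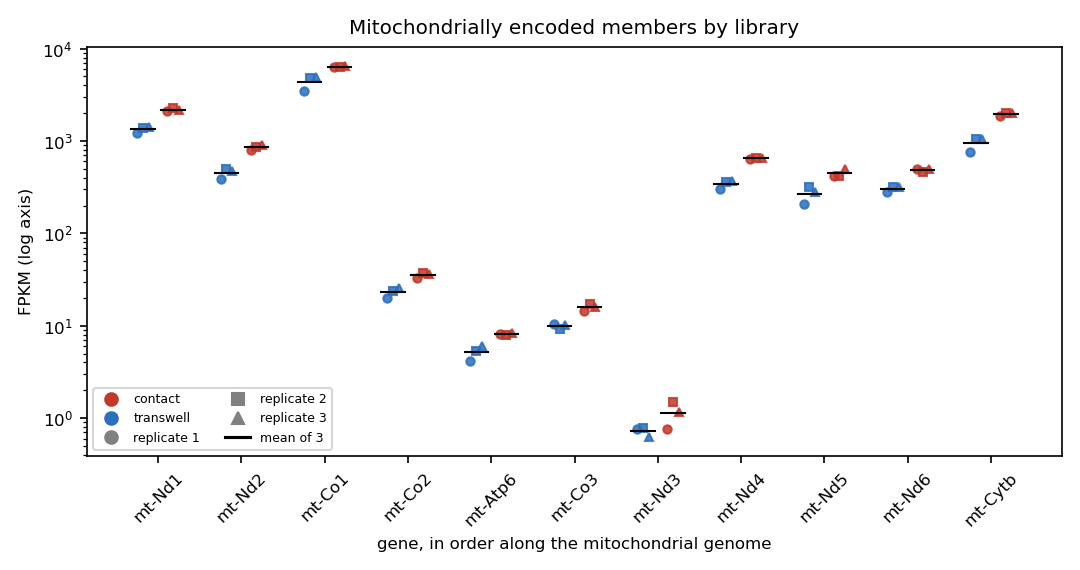
FPKM (y axis, log scale) of the 11 mitochondrially encoded members in gene order, with 3 contact libraries in red, 3 transwell libraries in blue, symbols by replicate number and lines at group means. Except for mt-Nd3, each gene's contact libraries lie above its transwell libraries, and transwell 1 (circle) is lowest for most genes.

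Genes that shared little sequence with other annotated genes rose, as did those with annotated nuclear copies. The 5 members with under 10% shared words all rose, with a median of 0.62, and the 5 tested members with over 50% shared words all rose, with a median of 0.55. The nuclear copies themselves gave mixed values: Gm28661 rose by 0.43 (edgeR's quasi-likelihood test, adjusted p = 0.0379), Gm28439, a copy of part of mt-Nd4, by 1.13 (adjusted p = 0.0232) and Gm29216, a copy of part of mt-Co1, by 0.99 (adjusted p = 0.0448). The changes of Gm28438 (0.97, adjusted p = 0.0572) and of Gm28437 and Gm10925, both 0.26, did not pass (adjusted p = 0.3 and 0.246). The reads of a gene and its copy cannot be told apart where the sequence is the same.

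The mitochondrial ribosomal RNAs, transcribed from the same strand as most of the protein genes, were not called. mt-Rnr1 stood at 285 ± 36.7 FPKM in contact and 271 ± 28.7 in transwell (SD, n = 3), a change of -0.05 (edgeR's quasi-likelihood test, adjusted p = 0.774). mt-Rnr2 stood at 260 ± 31.2 and 218 ± 39.7 FPKM, a change of 0.14 (adjusted p = 0.456). Within each library, the log2 ratio of summed mitochondrial members to both rRNAs was 4.42, 4.54 and 4.80 in contact and 4.02, 4.07 and 4.05 in transwell, without overlap, for means of 4.59 ± 0.19 and 4.05 ± 0.03 (SD, n = 3). The kit is labelled as mRNA-seq, so rRNA levels here depend on how much rRNA the selection let through. Of the mitochondrial tRNAs, mt-Tp alone was tested, with a change of 0.34 (adjusted p = 0.0513), and it was called higher by library totals.

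A ratio taken within a library does not depend on how libraries are scaled, and it separated the groups in every complex with members of both genomes. The summed mitochondrial members came to 12638, 13075 and 13343 FPKM in contact and 6631, 8809 and 8817 FPKM in transwell. The summed nuclear members came to 3948, 4038 and 3604 FPKM in contact and 4116, 3480 and 3728 FPKM in transwell, with overlapping groups. The log2 ratio of the former sum to the latter was 1.68, 1.70 and 1.89 in contact and 0.69, 1.34 and 1.24 in transwell. Its means were 1.75 ± 0.12 and 1.09 ± 0.35 (SD, n = 3), a difference of 0.66, with the lowest contact library above the highest transwell library. Leaving out transwell 1, the library with the lowest ratio, brought the difference to 0.46, the lowest over the libraries left out.

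By complex, the difference of mean log2 ratios was 0.97 in complex III, 0.75 in complex I and 0.54 in complex IV. For complex I the ratio was 1.37, 1.41 and 1.59 in contact and 0.42, 0.92 and 0.80 in transwell. For complex III it was 1.58, 1.64 and 1.81 in contact and 0.27, 0.95 and 0.90 in transwell. For complex IV, whose mitochondrial sum is nearly all mt-Co1, it was 1.98, 1.97 and 2.17 in contact and 1.04, 1.78 and 1.69 in transwell. The order of the complexes was not tested. The all-member difference was 0.81 without mt-Co1 in the sum, 0.66 on raw counts and 0.80 for the ratio of median members.

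**Figure D3:**
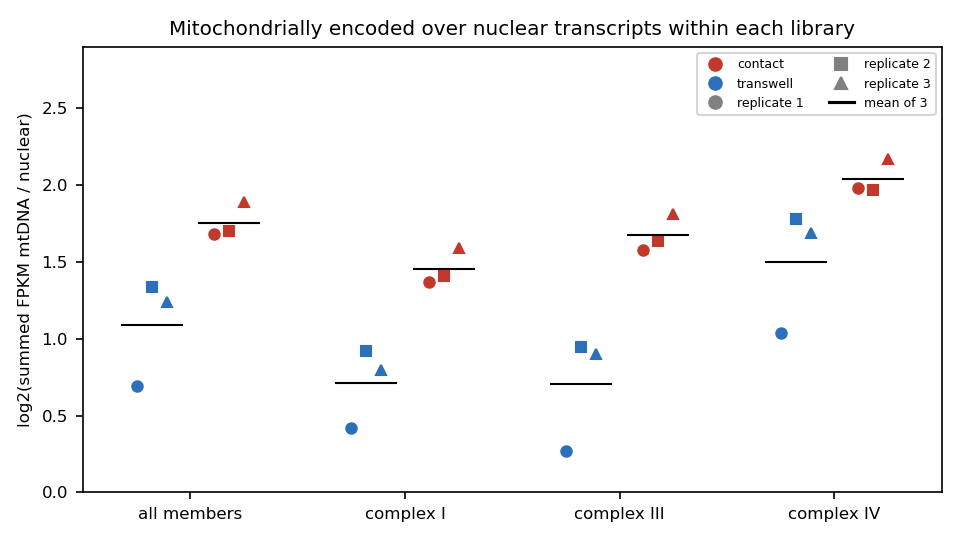
Log2 of summed mitochondrially encoded FPKM over summed nuclear FPKM within each library (y axis), for all members and for complexes I, III and IV, with contact in red, transwell in blue and lines at the means of 3 libraries. Contact libraries lie above transwell libraries in all 4 comparisons, by 0.54 to 0.97 between means, and transwell 1 is lowest throughout.

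Among the 40 tested nuclear complex I members, 1 rose (2.5%, against 21.4% of all genes), 6 fell (15.0%, against 16.1%) and 33 did not pass the test, with a median of -0.14. The largest fitted change of any member was that of Ndufa4l2 (chr10:127514967-127517154), a paralogue of Ndufa4 known as a HIF-1 target in hypoxia. Its level was 2.35, 2.71 and 2.30 FPKM in contact and 0.00, 0.05 and 0.00 FPKM in transwell. That corresponds to 176 counts in contact against 1 in transwell, a ratio of 149 per library count (exact 95% interval 26.4 to 5922, counting error only), and the gene was called higher (edgeR's quasi-likelihood test, adjusted p = 2.0e-05). The fitted log2 change of 6.70 rests on that single transwell count: it was 8.74 without transwell 2, which holds the count, and 1.76 by limma on log2(FPKM + 1). The gene's counts in contact libraries 1 to 3 were 58, 62 and 56, which lie too close together to be ranked. The epithelial marker sum was 1166, 1753 and 999 FPKM in those libraries and 5.82 to 6.26 FPKM in transwell. The part of epithelial transcripts in the Ndufa4l2 change was not tested. Ndufa4, counted here with complex I by its name although now assigned to complex IV, was present at 88.3, 97.4 and 83.9 FPKM in contact and 77.8, 62.8 and 72.9 FPKM in transwell. Its change of 0.22 did not pass (adjusted p = 0.108), though it did without transwell 1 (0.30, adjusted p = 0.0325). Without Ndufa4 and Ndufa4l2, none of 38 tested nuclear complex I members rose and 6 fell, with a median of -0.16.

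Accessory subunits of complex I that fell include Ndufa12, Ndufa10 and Ndufb8. Ndufa12 (chr10:94198720-94221443), which takes the place of its assembly-factor paralogue late in assembly, measured 21.35, 24.32 and 18.95 FPKM in contact and 29.7, 27.5 and 27.9 FPKM in transwell. Its groups did not overlap, and it fell by 0.52 ± 0.10 (edgeR's quasi-likelihood test, adjusted p = 0.00318), the largest fall of any member. Ndufa10 (chr1:92439010-92473860), a membrane arm subunit, measured 20.9, 19.8 and 19.5 FPKM in contact and 26.1, 22.5 and 22.8 FPKM in transwell, and fell by 0.36 ± 0.09 (adjusted p = 0.00903). Ndufb8 (chr19:44548572-44555440), also of the membrane arm, measured 34.3, 35.8 and 32.2 FPKM in contact and 41.8, 38.1 and 38.4 FPKM in transwell, and fell by 0.32 ± 0.08 (adjusted p = 0.00767). Contact libraries lay below transwell libraries for both.

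Ndufs3 and Ndufv1, core subunits of the peripheral arm, and Ndufa9, which sits where the arms meet, were called lower with changes of -0.29, -0.22 and -0.26 (edgeR's quasi-likelihood test, adjusted p = 0.0331, 0.0444 and 0.0341). Each of these calls ended on leaving out transwell 1 (-0.21, -0.18 and -0.19) and on leaving out any of contact 2, contact 3 or transwell 3, and those of Ndufv1 and Ndufa9 also without contact 1. Of the 11 tested Ndufb members, Ndufb8 was called lower and the other 10, the Ndufb1 row among them, were not called. The most abundant nuclear complex I members were not called: Ndufa2 had means of 153 ± 17.7 and 128 ± 14.6 FPKM (change 0.14, adjusted p = 0.363), and Ndufa1 105 ± 6.55 and 89.0 ± 10.6 FPKM (change 0.12, adjusted p = 0.42; SD, n = 3).

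In complex III, which passes electrons from ubiquinol to cytochrome c, 1 of 8 nuclear members rose (12.5%, against 21.4% of all genes), 3 fell (37.5%, against 16.1%) and 4 did not pass, with a median of -0.19. Uqcrh (chr4:116066965-116075071), the hinge protein beside cytochrome c1, measured 175, 177 and 143 FPKM in contact and 128, 110 and 115 FPKM in transwell. It rose by 0.37 ± 0.10 (edgeR's quasi-likelihood test, adjusted p = 0.016), a call that ended without contact 1 (0.32), contact 2 (0.33), transwell 2 (0.29) or transwell 3 (0.35), at adjusted p of 0.0636 to 0.0745. Contact 3, lowest of its group for Uqcrh, also held the lowest sum of epithelial markers in that group, and it was the lowest contact library for 79% of the tested nuclear members. Uqcrc1 (chr9:108936633-108949623), a core protein of the matrix side, measured 32.6, 32.8 and 31.1 FPKM in contact and 39.9, 34.6 and 36.1 FPKM in transwell, and fell by 0.31 ± 0.08 (adjusted p = 0.0109). Its groups did not overlap.

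The other core protein gene, Uqcrc2 (chr7:120635176-120659524), measured 34.0, 34.6 and 33.9 FPKM in contact and 40.4, 36.4 and 35.9 FPKM in transwell. It fell by 0.25 ± 0.08 (edgeR's quasi-likelihood test, adjusted p = 0.0259), a call that ended without any 1 library other than transwell 2, at changes of -0.29 to -0.19. Uqcrb (chr13:66900617-66905378), a ubiquinone-binding subunit, measured 90.1, 92.8 and 89.8 FPKM in contact and 114, 96.7 and 101 FPKM in transwell, and fell by 0.31 ± 0.08 (adjusted p = 0.0169), a call that ended without contact 1 (-0.31, adjusted p = 0.0606) or contact 2 (-0.32, adjusted p = 0.0534). Uqcr10, a small subunit and among the most abundant of the complex, stood at 107 ± 3.35 FPKM in contact and 102 ± 12.4 in transwell (SD, n = 3) and was not called (change -0.06, adjusted p = 0.689).

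In complex IV, 1 of 14 tested nuclear members rose (7.14%, against 21.4% of all genes), 3 fell (21.4%, against 16.1%) and 10 did not pass, with a median of -0.14. Within the Cox7a family, Cox7a2l rose and Cox7a2 fell. Cox7a2l (chr17:83501918-83517330), also called SCAF1, binds complex III to complex IV in supercomplexes and is known to be truncated in some inbred mouse strains. It measured 142, 137 and 115 FPKM in contact and 97.6, 83.1 and 89.6 FPKM in transwell. It rose by 0.43 ± 0.10 (edgeR's quasi-likelihood test, adjusted p = 0.00716), and its groups did not overlap. Cox7a2 (chr9:79755361-79759878), the widely expressed subunit of the same family, measured 79.1, 79.5 and 80.4 FPKM in contact and 110, 89.9 and 89.7 FPKM in transwell. It fell by 0.39 ± 0.09 (adjusted p = 0.00923), also without overlap.

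The log2 ratio of Cox7a2l to Cox7a2, per length and within each library, was 0.84, 0.79 and 0.52 in contact and -0.17, -0.11 and 0.00 in transwell. The groups did not overlap, and the means of 0.72 ± 0.17 and -0.09 ± 0.08 (SD, n = 3) differed by 0.81. Contact 3 lay closest to the transwell libraries and held the lowest epithelial sum of the contact group (999 FPKM), but contact 2, with the highest (1753 FPKM), did not have the highest ratio; the part of these transcripts was not tested. Both genes kept their calls under every alternative tried, leaving out each library included. The third paralogue, Cox7a1, known from heart and muscle, was low at 1.91 ± 0.103 and 1.34 ± 0.422 FPKM and was not called (change 0.39, edgeR's quasi-likelihood test, adjusted p = 0.41).

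Of the other complex IV subunits that fell, Cox7b (chrX:106015700-106022450) measured 41.1, 45.3 and 47.7 FPKM in contact and 56.3, 55.1 and 55.9 FPKM in transwell, a fall of 0.43 ± 0.08 (edgeR's quasi-likelihood test, adjusted p = 0.00245) with no overlap. Cox5b (chr1:36691449-36693681), a zinc-binding subunit of the matrix side, measured 48.0, 48.9 and 46.6 FPKM in contact and 60.7, 50.9 and 53.9 FPKM in transwell. It fell by 0.32 ± 0.09 (adjusted p = 0.015), and the call ended without contact 1 (-0.33, adjusted p = 0.0505). Cox7b kept its call under every alternative tried.

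The most abundant nuclear members of the whole group belonged to complex IV and did not pass the test. Cox4i1, the first nuclear subunit to join the catalytic core, stood at 319 ± 26.1 FPKM in contact and 292 ± 32.2 in transwell (SD, n = 3; change 0.01, edgeR's quasi-likelihood test, adjusted p = 0.941), and the sign of its change turned under other scalings. Cox6b1, on the intermembrane face, stood at 271 ± 17.4 and 259 ± 21.3 FPKM (change -0.05, adjusted p = 0.684), and its sign turned too. Cox8a stood at 243 ± 14.7 and 251 ± 26.6 FPKM (change -0.17, adjusted p = 0.192) and Cox6a1 at 169 ± 10.4 and 178 ± 8.39 FPKM (change -0.19, adjusted p = 0.0893). With a correction for GC content and length, both were called lower, Cox8a at -0.16 (adjusted p = 0.0314) and Cox6a1 at -0.28 (adjusted p = 0.00301). When a replicate block was added to that correction, Cox6a1 stayed called (-0.28, adjusted p = 0.0105) and Cox8a did not (-0.16, adjusted p = 0.074). The tissue-restricted partners were low in both groups: Cox4i2 averaged 0.133 and 0.0667 FPKM, the muscle forms Cox6a2 0.537 and 0.953 and Cox8b 0.04 and 0.05. Cox6b2, known from testis, had the largest complex IV change, 1.14 ± 0.49, at under 1 FPKM on average, and was not called (adjusted p = 0.0984), though it was by limma on log2(FPKM + 0.1) (1.26, adjusted p = 0.0448) and on log2(FPKM + 1) (0.49, adjusted p = 0.0202).

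**Figure D4:**
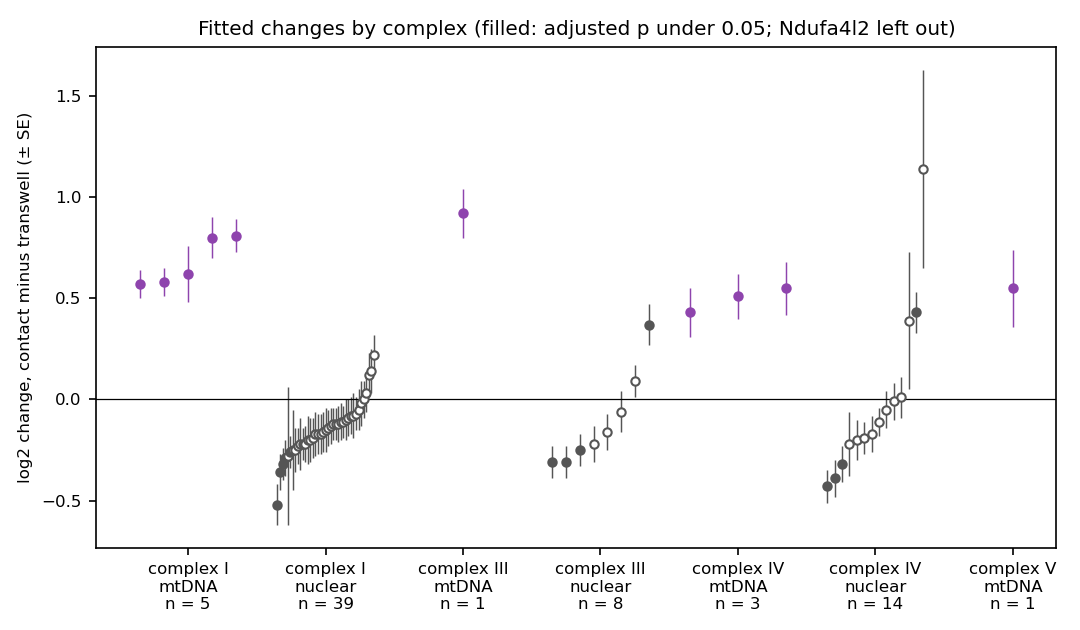
Log2 change, contact minus transwell, with SE (y axis) for each tested member, grouped by complex and genome (x axis), mitochondrially encoded members in purple and nuclear members in grey, filled where the adjusted p is under 0.05 and with Ndufa4l2 (6.70) left out. All 10 mitochondrial points lie between 0.43 and 0.92, and nuclear medians lie between -0.19 and -0.14.

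**Figure D5:**
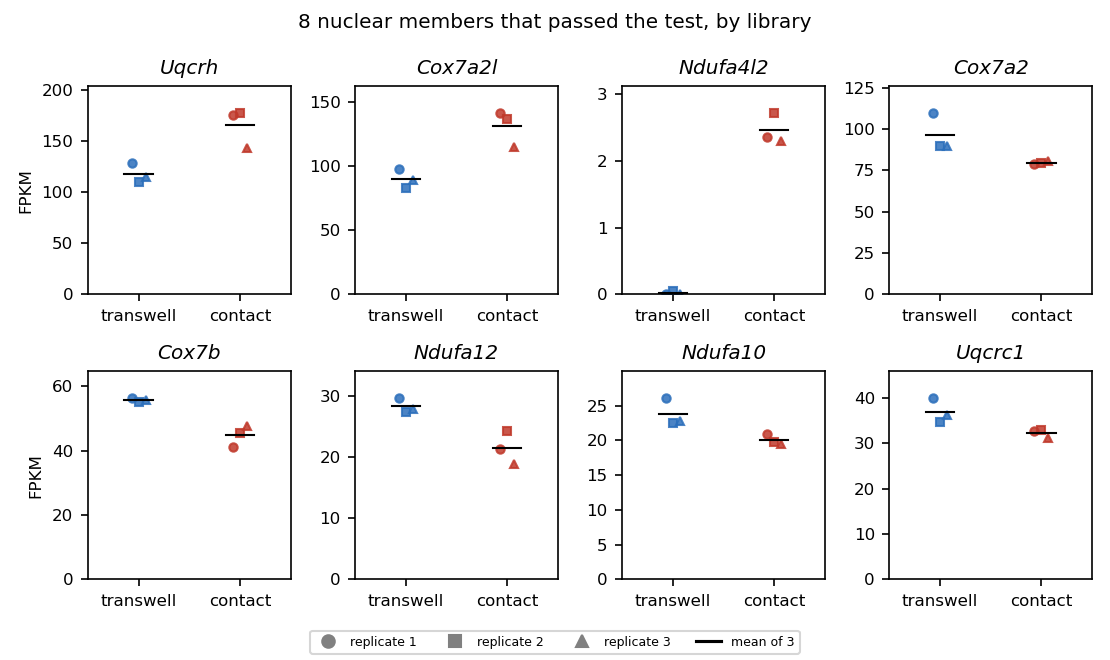
FPKM (y axis, each from 0) of 8 called nuclear members in the 3 transwell (blue) and 3 contact (red) libraries, symbols by replicate number and lines at group means. Uqcrh, Cox7a2l and Ndufa4l2 lie higher in contact and the other 5 lower, with no overlap in any panel.

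On TMM-scaled counts, contact lay wholly above transwell for 10 of 10 mitochondrial and 4 of 62 nuclear members (Ndufa4l2, Uqcrh, Cox7a2l and Cox6b2), against 27.7% of all genes tested. Contact lay wholly below for 22 of 62 nuclear members and no tested mitochondrial one, against 22.7% of all genes. The nuclear members also moved together among replicates: transwell 1 was the highest of its group for 58 of 62 nuclear members (93.5%; 39.3% of all genes) and the lowest for 9 of 10 mitochondrial members (90%; 42.3% of all genes). Contact 3 was the lowest of its group for 49 of 62 nuclear members (79%; 39.1% of all genes) and the highest for 7 of 10 mitochondrial members (70%; 34.9% of all genes). The groups of nuclear and mitochondrial genes thus stood at opposite ends of their condition in both of these libraries. The summed neutrophil markers were 1130 FPKM in transwell 1 and 505 and 480 FPKM in the other transwell libraries, and their part was not tested. Without transwell 1, 9 of 10 mitochondrial members were called higher with a median of 0.52, and 8 nuclear members lower and 4 higher with a median of -0.09. Without transwell 2, which was lowest of its group for 51 of 62 nuclear members, 18 were called lower.

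Other nuclear genes of oxidative phosphorylation also had medians below 0, and their counts are to be read against the 21.4% of all genes called higher and 16.1% called lower. Of 4 complex II genes, which encode succinate dehydrogenase, 3 fell and none rose: Sdhb by 0.36, Sdhc by 0.26 and Sdha by 0.19 on the log2 scale (edgeR's quasi-likelihood test), while Sdhd was not called at 0.04. Of 18 nuclear complex V genes, 6 fell and none rose, with a median of -0.17, led by Atp5g1 (-0.51), a c-ring gene, Atp5o (-0.43), a stalk subunit, Atp5b (-0.42), a catalytic head subunit, and Atp5c1 (-0.39). Of 15 electron carrier and ubiquinone synthesis genes, 5 fell and 1 rose, with a median of -0.23. Coq3 (-0.77) and Coq5 (-0.53), methyltransferases of ubiquinone synthesis, Etfb (-0.50), of the electron transfer flavoprotein, and Cycs (-0.47), cytochrome c itself, were among those that fell, and Coq8a (1.32), an atypical kinase of the same pathway, was the one that rose. Scaled by library totals, 1 complex II gene fell (Sdhb), as did 4 complex V genes and 4 of the carrier list, and Coq8a again rose, with medians of -0.11, -0.05 and -0.11. The calls over all genes moved too, to 3934 of 14113 higher and 1450 lower.

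Among assembly factors, the shares that fell lay near the 16.1% of all genes called lower for complexes I and IV. Of 16 complex I assembly genes 3 fell and none rose (Tmem126b -0.50, Ndufaf3 -0.37 and Foxred1 -0.27), with a median of -0.12. Of 6 complex III assembly genes, 2 fell and none rose: Bcs1l (-0.78), which inserts the Rieske protein, and Lyrm7 (-0.73), its chaperone. Of 24 tested complex IV assembly genes, 4 fell (Coa6 -0.69, Coa5 -0.52, Coa4 -0.48 and Cox19 -0.38) and 3 rose (Cmc2 0.47, Higd1a 0.35 and Higd2a 0.31), with a median of -0.18. By library totals, 1, 2 and 2 genes of these lists fell and 1, 1 and 3 rose, where 1450 of all 14113 genes fell and 3934 rose.

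The machinery that expresses mitochondrial DNA was mostly not called, and its counts are to be read against 21.4% of all genes called higher and 16.1% called lower. Of 18 tested genes of mitochondrial DNA upkeep and transcription, 1 rose, Top1mt (0.55), a topoisomerase, and 2 fell, Dguok (-0.36), a nucleoside kinase, and Polrmt (-0.32), the mitochondrial RNA polymerase, with a median of 0.13. Tfam, which packages mitochondrial DNA and starts its transcription, changed by 0.22 ± 0.08 and was not called (edgeR's quasi-likelihood test, adjusted p = 0.06). Of 20 genes of mitochondrial RNA processing and stability, 5 fell and 1 rose, with a median of -0.06. Slirp (-0.50), which with Lrpprc stabilises mitochondrial mRNAs, was the largest fall, Grsf1 (0.32), of the RNA granules, was the rise, and Lrpprc was not called (-0.03). Of 75 mitochondrial ribosomal protein genes, 10 fell and none rose, led by Mrpl55 (-0.68) and Mrps28 (-0.50), with a median of -0.04. These counts turned with the scaling: by library totals, 6 upkeep genes rose, Tfam among them, and none fell, 2 processing genes rose and 1 fell, and 4 ribosomal protein genes rose and 3 fell, with medians of 0.25, 0.06 and 0.07. That scaling moved the calls over all genes as well: 3934 of 14113 were higher in place of 3016, and 1450 lower in place of 2270.

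Of 11 tested regulators of mitochondrial gene expression, 5 rose and 2 fell, with a median of 0.15. These counts stand beside 21.4% of all genes called higher and 16.1% called lower, and no test against those shares was made. Nfe2l2 (1.31), the oxidative stress factor NRF2, Gabpa (0.43), the DNA-binding subunit of GABP, Hif1a (0.43), Myc (0.40) and Nrf1 (0.35) rose (edgeR's quasi-likelihood test), and Esrra (-0.30) and Pprc1 (-0.28) fell. By library totals 6 rose, Gabpb1 being added, and none fell, where 3934 of all 14113 genes rose and 1450 fell. Ppargc1a, the PGC-1alpha gene, averaged 0.02 FPKM in contact and 0.00667 in transwell and was not tested.

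Because NRF1 and GABP are known to bind promoters of nuclear subunit genes, the promoters of 4 nuclear members of complexes III and IV, a rising and a falling one each, are shown (RefSeq, GRCm38.p6, 250 bases before to 50 after the gene start, strand of the gene). Capitals mark matches to the core bound by NRF1 (GCGC, then any base, then TGCGC) or to CCGGAAG, an ETS core as bound by GABP, searched on both strands, so that CTTCCGG is a match of the latter. The motifs have different letters and no match overlapped another in these promoters. Uqcrh (chr4:116075021-116075320, minus strand) and Cox7a2l (chr17:83514284-83514583, minus strand) rose, and Uqcrc1 (chr9:108936398-108936697, plus strand) and Cox7b (chrX:106015450-106015749, plus strand) fell. The Cox7a2l window follows the RefSeq start and lies inside the GENCODE span given above, whose start on this strand is 83517330. Sequence at that GENCODE start was not searched.
Uqcrh: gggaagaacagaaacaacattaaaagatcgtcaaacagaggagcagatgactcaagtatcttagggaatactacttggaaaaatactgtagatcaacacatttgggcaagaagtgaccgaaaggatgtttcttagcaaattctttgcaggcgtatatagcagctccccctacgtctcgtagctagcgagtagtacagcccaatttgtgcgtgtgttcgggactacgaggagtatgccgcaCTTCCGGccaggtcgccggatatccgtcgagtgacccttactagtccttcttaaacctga
Cox7a2l: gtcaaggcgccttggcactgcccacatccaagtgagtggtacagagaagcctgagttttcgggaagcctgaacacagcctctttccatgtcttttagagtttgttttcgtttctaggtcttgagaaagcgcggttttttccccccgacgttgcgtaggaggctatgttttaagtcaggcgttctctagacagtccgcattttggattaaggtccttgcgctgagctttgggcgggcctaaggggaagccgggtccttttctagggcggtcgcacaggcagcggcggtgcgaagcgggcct
Uqcrc1: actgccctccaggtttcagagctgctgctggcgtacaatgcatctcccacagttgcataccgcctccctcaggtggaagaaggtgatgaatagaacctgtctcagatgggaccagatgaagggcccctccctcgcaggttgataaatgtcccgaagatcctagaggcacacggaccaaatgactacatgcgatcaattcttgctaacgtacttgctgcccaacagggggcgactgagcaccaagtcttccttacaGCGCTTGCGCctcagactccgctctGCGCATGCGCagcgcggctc
Cox7b: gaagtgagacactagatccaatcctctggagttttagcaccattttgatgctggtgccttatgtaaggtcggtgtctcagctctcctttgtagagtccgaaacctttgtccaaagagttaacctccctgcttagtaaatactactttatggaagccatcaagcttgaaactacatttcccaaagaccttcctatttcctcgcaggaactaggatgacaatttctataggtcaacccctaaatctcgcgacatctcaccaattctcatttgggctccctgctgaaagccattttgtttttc

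The Uqcrc1 window held 2 matches to the NRF1 core, the Uqcrh window 1 match to the ETS core, and the Cox7a2l and Cox7b windows neither. Of 66 nuclear members, 49 had a promoter in the RefSeq table, of which 9 (18.4%) held the NRF1 core and 9 (18.4%) the ETS core, against 4.78% and 9.12% of all 27025 promoters of the same length. Among members with the NRF1 core, Uqcrc1 fell and Ndufa5, Ndufa6, Ndufa8, Ndufa11, Ndufb4, Ndufs5, Ndufs6 and Cox6a1 were not called. Among those with the ETS core, Uqcrh rose and Ndufs3 fell, and Cox6a1, Cox6b1, Cox8a, Ndufb6, Ndufb7, Ndufs8 and Uqcr11 were not called. A match is a description of these letters and not evidence of binding.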

How the data were processed

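RNA from 3 contact and 3 transwell libraries was compared, with groups and replicate numbers taken from the sample titles. Per the file headers, the authors deposited both raw counts and FPKM for each library, by Ensembl gene ID. Of values with a count above 100, 99.93% of the deposited FPKM lay within 1% of the value computed from count, length and library total. GRCm38 and mm10 are named in the submitters' processing notes. For the aligner, counter, annotation and use of strand, nothing is stated in the sources used here. Of 52073 gene IDs shared with GENCODE M21, 1472 had the same start and end, so positions come from GENCODE M21 by ID.

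The filter of low counts was filterByExpr with a minimum of 10 counts, after which 14113 genes remained. Libraries were scaled by TMM and compared by the quasi-likelihood test of edgeR 4.0.16 (R 4.3.3, with limma 3.58.1 for the FPKM alternative), two-sided, with Benjamini-Hochberg adjustment over all genes tested and a threshold of 0.05. The script was tested on simulated data. Log2 changes are on the TMM scale, and levels and within-library ratios are in deposited FPKM. Scaling by library totals alone moved the median of all genes from 0.03 to 0.14 and the share of calls that were higher from 57.1% to 73.1%. Epithelial and other markers were summed in FPKM. Shared sequence was counted as 50-base words of annotated transcripts.

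Members and lists were chosen with earlier results of these data known. Full values are given for mitochondrial members, for the 4 largest called changes and the 2 most abundant genes of each nuclear complex, and for isoform pairs. For companion lists, up to 4 called genes with the largest change and a mean of at least 1 FPKM were named. Further names (Ndufs3, Ndufv1, Ndufa9, Cox6b2, Cycs, Sdhd, Cox19, Higd1a, Higd2a, Tfam, Lrpprc, Nrf1, Esrra, Pprc1 and Ppargc1a) were chosen after their values were seen. Alternatives were DESeq2 1.42.0, RLE, upper-quartile and library-total scaling, scaling without mitochondrial genes and epithelial markers, limma on log2(FPKM + 1) and log2(FPKM + 0.1), other filters, a correction for GC content and length, a replicate block and leaving out each library. Companion lists were also counted by library totals, and complex I without Ndufa4 and Ndufa4l2, both chosen after seeing the data. Replicate pairs differed by a chi-square per degree of freedom of 6.376 to 25.18, so none agreed within sampling noise. Intervals cover counting error only.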

Additional observations from a re-analysis of the deposited data

How the results depend on the processing

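Over the settings tried, 8 to 10 mitochondrial members were called higher and none lower, and their median stayed between 0.44 and 0.69. The nuclear results depended on the scaling. The nuclear median of -0.15 became -0.04 by library totals and by limma on log2(FPKM + 0.1), and -0.03 by limma on log2(FPKM + 1). Nuclear members called lower fell from 12 to 4 by library totals and to 5 by limma with either pseudocount, and those called higher rose from 3 to 6 by limma with either. These settings apply no TMM factor, which moves every change by the same amount. Leaving out each library gave a ratio difference of 0.46 to 0.79, a mitochondrial median of 0.52 to 0.63 with 8 to 9 called higher, and a nuclear median of -0.24 to -0.09 with 2 to 4 called higher and 7 to 18 lower. The sign turned for 3 members near 0, and the cause was not tested: Cox4i1 at -0.0034 by DESeq2 and by RLE scaling, -0.02 without a filter and -0.09 to 0.11 over the libraries left out; Cox6b1 at 0.07 by library totals and by limma, 0.007 among genes of at least 5 FPKM and -0.14 to 0.02 over the libraries left out; and Uqcr10 at 0.06 by library totals and by limma and -0.16 to 0.05 over the libraries left out.

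Deviations from the group mean correlated at -0.123, -0.442 and 0.029 between same-numbered libraries and at -0.292 to 0.331 between differently numbered ones. With 3 libraries centred in each group these values are not independent, so they cannot decide whether same-numbered libraries share a source. With the replicate block, 9 mitochondrial members were called higher, at a median of 0.58, and 3 nuclear members higher and 11 lower, at a median of -0.15. The block with the GC and length correction gave 9, 3 and 13, at a mitochondrial median of 0.45 and a nuclear median of -0.15. The correction without the block called 9 mitochondrial members higher and 3 nuclear members higher and 16 lower. Its mitochondrial median of 0.44, against 0.57 in the main fit, was the lowest of the settings tried, and its nuclear median was -0.15. The filter on low counts kept mt-Nd3, with 40 counts, out of the test.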
